A study of Homo sapiens with 15 samples.

Results

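The subject of this account is a group of 49 human genes whose products license replication origins or build, drive and protect the replication fork, followed on expression arrays while CDK2 was knocked down. The genes were chosen by name: a probe set was taken if it named 1 of the 49 genes and no other gene. That gave 90 probe sets among the 54675 on the array, and 4 more that named PRIM2 together with another gene were left out. All 49 genes had at least 1 probe set past the filter on dim signal, which 11774 genes in all passed, and 83 of the 90 probe sets passed it. Each gene was read from its brightest probe set, and 24 of the 49 had only that probe set past the filter.

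The cells were IMR32, an established human neuroblastoma line, and every array came from a single clone of it. That clone carried the pcDNA6/TR vector, in which a CMV promoter drives the tetracycline repressor, and the pTER/CDK2 vector, whose short hairpin RNA targets nucleotides 546 to 566 of the CDK2 mRNA. Cells were grown in medium with 10% fetal calf serum, and doxycycline at 100 ng/ml lifted the repression of the hairpin. There were 5 groups of 3 arrays, sampled at times 0, 8, 24, 48 and 72, and the labels do not state the unit. What is known of the study gives them as hours. All 5 groups carried both vectors, and time 0 served as the only control: no culture kept without doxycycline to a later time and no clone without the hairpin was used here. Time in culture, doxycycline and loss of CDK2 therefore cannot be told apart. The comparison asks what happens to mRNAs of the replication machinery as the kinase is lost.

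Replication origins are licensed in G1 phase, when the origin recognition complex (ORC), CDC6 and CDT1 load the ring-shaped MCM2-7 helicase onto DNA, while geminin blocks CDT1 once S phase has begun. In S phase the kinase pair CDC7 and DBF4 and the cyclin-dependent kinases, CDK2 among them, turn each loaded ring into an active helicase by adding CDC45 and the GINS complex. DNA polymerase alpha and primase then start each strand, polymerases epsilon and delta extend them on the PCNA clamp that RFC loads, FEN1 and LIG1 join the Okazaki fragments, RPA covers single strands, and TIMELESS, TIPIN, CLSPN and WDHD1 stabilise the fork. Many of these genes are known targets of E2F transcription factors in cycling cells, so their mRNAs are commonly read as proliferation markers.

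CDK2 itself was lower on every array after 0 h. Its signal was 246, 236 and 214 at 0 h, 101, 92.6 and 90.2 at 8 h and 81.0, 87.8 and 72.4 at 24 h. CDK2 gave 52.7, 53.0 and 40.1 at 48 h and 30.0, 40.0 and 20.2 at 72 h. At 8 h its log2 change was -1.16 ± 0.14 (SE, adjusted p = 4.6e-04) and at 72 h -2.45 ± 0.14 (adjusted p = 1.2e-10). Signals here are MAS5 intensities in arbitrary units, and all log2 changes are differences of log2(signal + 16), which understate the change of dim genes. A gene is called higher or lower where limma's Benjamini-Hochberg adjusted p over all 11774 genes was under 0.05. No label says that replicates were separate cultures, so p-values measure the spread between these arrays, which may be technical, and 3 arrays a time limit the precision. Array medians ran between 17.3 and 20.5 at 72 h, against 15.6 and 16.9 at 0 h, and the ACTB 3'/5' ratio, a sign of RNA integrity, between 1.21 and 1.35 at 72 h, against 1.10 and 1.19 at 0 h. The noradrenergic markers of neuroblastoma were present, 7 of the 8 on the array passing the filter, with a summed signal of 12640 to 13590 at 72 h and 10410 to 10800 at 0 h. TH, the enzyme that begins catecholamine synthesis, was the marker that did not, with signals of 0.5 to 9.5. Of 5 fibroblast markers 3 passed, summing to 603.5 to 895.3 at 72 h and 254.5 to 448.1 at 0 h, with LUM at a mean of 346.3 at 72 h and 13.7 at 0 h. None of 3 immune markers passed, with sums of at most 33.5, and of endothelial, epithelial and Schwann or mesenchymal markers 1 of 4 passed in each list, the last summing to 243.1 to 288.0 at 72 h and 120.2 to 205.8 at 0 h. The part of array medians, RNA integrity and these marker lists in the results below was not tested.

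None of the replication genes was called at 8 h, some were at 24 h, and almost all were lower at 48 h and 72 h. At 72 h 46 of the 49 genes were called lower and 1, ORC4, higher, where 22.7% of all genes tested were lower and 32.8% higher. At 48 h the counts were likewise 46 lower and 1 higher, where 17.7% of all genes were lower and 26.3% higher. At 24 h 11 were lower and 2 higher, where 5.72% of all genes were lower and 7.74% higher. At 8 h none was called in either direction, where 0.357% of all genes were lower and 0.0934% higher. In the same limma fit 6 were lower and 2 higher at 8 h at an unadjusted p under 0.05, where 3.34% and 6.14% of all genes were. The median log2 change of the 49 at 8 h was 0.01, beside 0.02 over all genes, and at 24 h -0.12 beside 0.05. At 48 h it was -1.06 beside 0.08, and at 72 h -1.57 beside 0.10. When arrays were centred on their medians the all-gene median at 72 h came to -0.01, and 47 replication genes were then lower. The share of all genes called lower after centring was not computed. In 46 of the 49 every array at 72 h read below every array at 0 h, as in 25.1% of all genes. All 3 arrays at 24 h read below those at 0 h in 20 of the 49 and above them in 4. Over all 11774 genes this was so in 1645 and 2411. At 8 h all 3 arrays read below those at 0 h in 6 of the 49 and above them in 6, beside 652 and 1214 of all genes. Counts of called genes by role, given below, stand beside the same shares of all genes. The signal is from bulk RNA, so fewer cells that express a gene and less RNA per cell cannot be told apart.

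**Figure D1:**
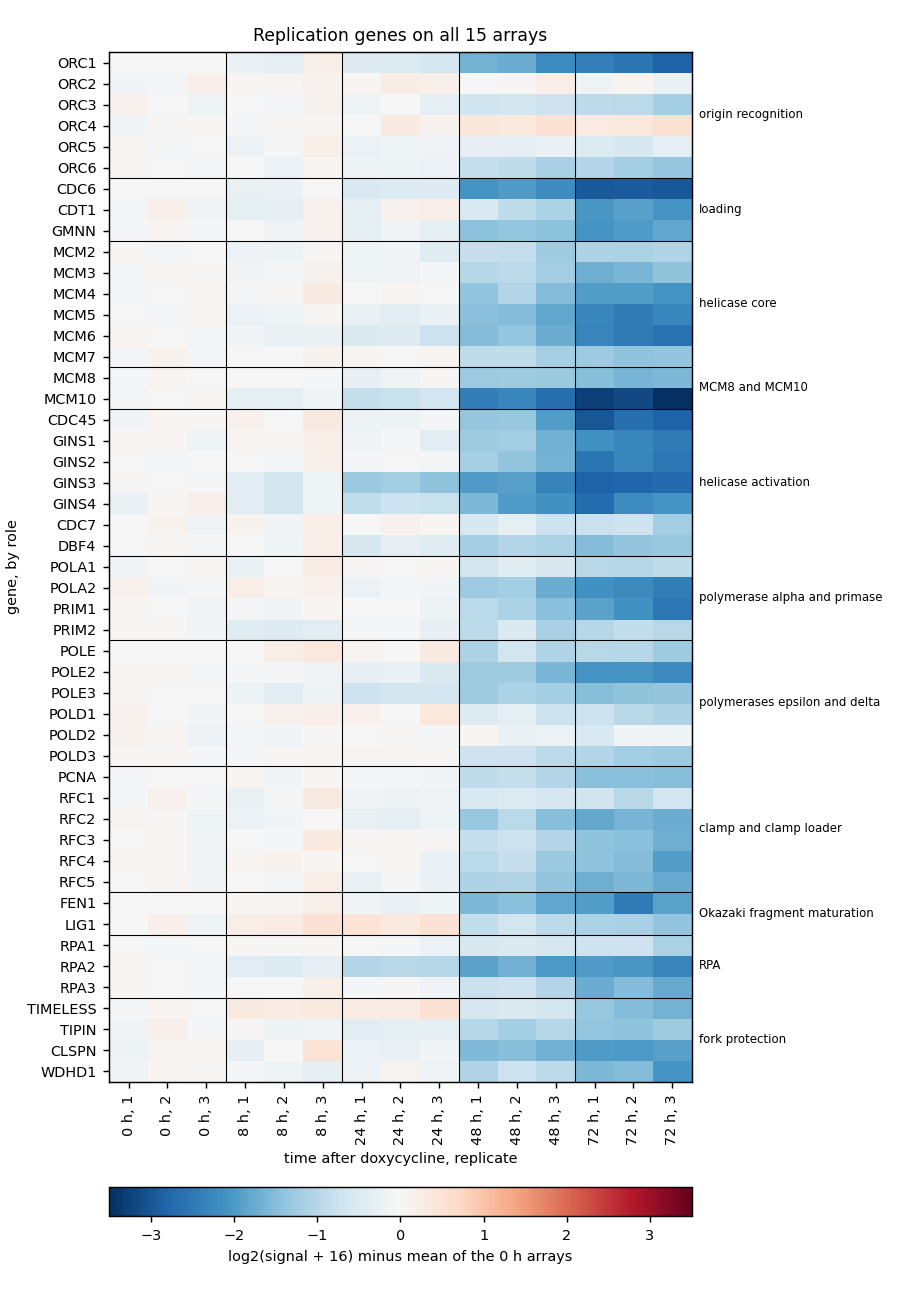
Log2 signal of the 49 genes (rows, ordered by role) on each of the 15 arrays (columns, ordered by time from 0 h to 72 h), shown as the difference from the gene's own mean at 0 h. The columns at 48 h and 72 h are low for 46 of the 49 genes, while ORC4 is high there and ORC2 and POLD2 stay near 0.

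The size of the decrease at 72 h ran over a wide range. The log2 change was -1 or lower in 39 of the 49 genes, where 4.95% of all genes were called lower by that much, and -2 or lower in 15, where 1.2% of all genes were. The mean signal was under 25% of its 0 h value in 20 genes at 72 h and in 6 at 48 h. The share of all genes below that level was not computed. On the log2(signal + 16) scale the greatest decreases were those of MCM10 (-3.33 ± 0.11), CDC6 (-2.94 ± 0.08), CDC45 (-2.83 ± 0.14), GINS3 (-2.78 ± 0.12) and ORC1 (-2.59 ± 0.15, log2 change ± SE), genes of loading and of helicase activation and the ATPase of the origin recognition complex. Without the added 16 the order differs: the mean signal of GINS4 at 72 h was 9.17% of that at 0 h, between 7.96% for MCM10 and 9.69% for CDC45, though its log2 change was -2.31 ± 0.18. By role, the median log2 change at 72 h was -2.45 for MCM8 and MCM10, -2.31 for the helicase activators, -2.0 for the loading factors, -1.79 for MCM2 to MCM7, -1.68 for RPA, -1.65 for FEN1 and LIG1, -1.61 for fork protection, -1.58 for the clamp and its loader, -1.57 for polymerase alpha and primase, -1.13 for polymerases epsilon and delta and -0.73 for the ORC subunits. Each of these 11 sets holds between 2 and 7 genes, and no difference between sets was tested.

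**Figure D2:**
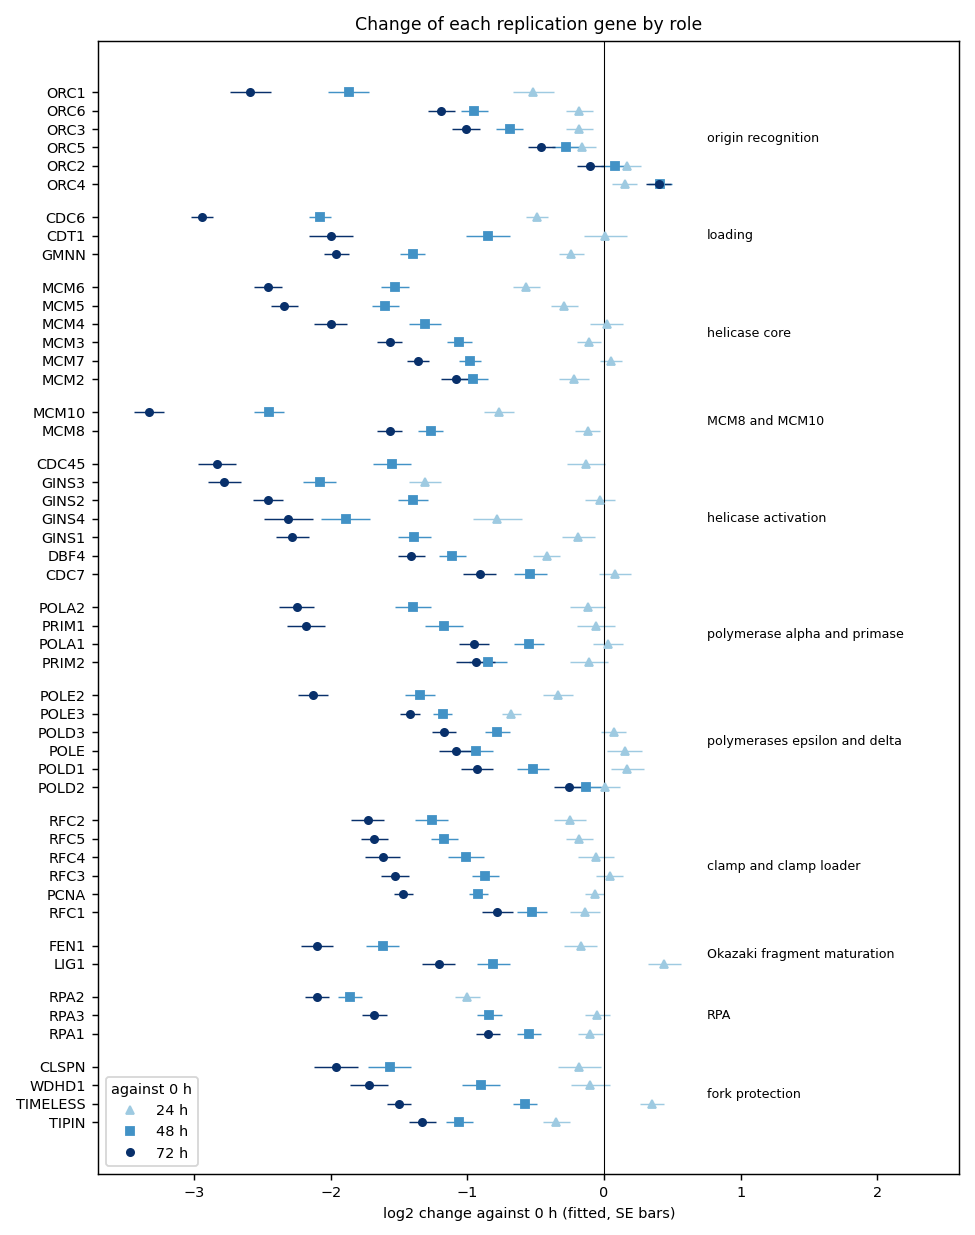
Log2 change of each gene against 0 h at 24 h (triangles), 48 h (squares) and 72 h (circles), grouped by role. Bars are 1 SE, on the log2(signal + 16) scale. At 72 h the genes within most roles spread over more than 1 log2 unit, from MCM10 at -3.33 to ORC4 at 0.40.

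Promoters are shown for some of the genes with large or early decreases and for ORC4, the only gene called higher at 72 h. E2F sites are a known link between these genes and the cell cycle. The sequences are RefSeq's, 250 bases before to 50 bases from the gene's start on GRCh38.p14, written 5′ to 3′ on the gene's own strand, and were found for 43 of the 49 genes. Some genes have more than 1 listed start, ORC4 with 2 among them, and a gene is counted as holding letters if any of its promoters does. MCM4, MCM5, GINS4, POLD3, RPA2 and RPA3 had no entry. Capitals mark the core E2F letters searched on both strands, which were TTTCCCGC or TTTCGCGC or TTTGGCGC or TTTGCCGC. The promoter of MCM6 lies on the minus strand at chr2:135876394-135876693, that of CDC6 on the plus strand at chr17:40287629-40287928 and that of GINS3 on the plus strand at chr16:58392221-58392520. The promoters of MCM10, on the plus strand at chr10:13161308-13161607, and of ORC4, on the minus strand at chr2:148021502-148021801, held none of these letters and are printed for contrast. Those of CDC45, ORC1 and POLE3, genes with large or early decreases too, also held none and are not printed.
MCM6: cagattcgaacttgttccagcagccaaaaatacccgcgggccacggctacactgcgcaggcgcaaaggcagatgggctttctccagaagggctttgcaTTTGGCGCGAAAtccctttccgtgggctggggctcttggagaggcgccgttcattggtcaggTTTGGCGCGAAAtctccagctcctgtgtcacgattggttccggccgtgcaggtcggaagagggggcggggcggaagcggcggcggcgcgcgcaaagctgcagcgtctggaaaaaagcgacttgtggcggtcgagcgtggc
CDC6: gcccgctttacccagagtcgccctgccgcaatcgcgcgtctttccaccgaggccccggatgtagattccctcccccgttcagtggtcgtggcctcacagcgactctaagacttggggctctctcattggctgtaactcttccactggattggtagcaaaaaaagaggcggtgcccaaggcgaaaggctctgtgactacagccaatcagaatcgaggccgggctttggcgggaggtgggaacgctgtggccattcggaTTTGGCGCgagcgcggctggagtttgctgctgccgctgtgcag
GINS3: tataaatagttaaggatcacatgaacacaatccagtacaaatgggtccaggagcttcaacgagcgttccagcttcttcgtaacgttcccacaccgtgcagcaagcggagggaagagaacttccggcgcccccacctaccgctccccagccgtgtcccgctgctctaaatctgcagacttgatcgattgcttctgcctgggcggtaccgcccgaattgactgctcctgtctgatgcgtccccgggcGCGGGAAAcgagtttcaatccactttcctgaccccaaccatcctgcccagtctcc
MCM10: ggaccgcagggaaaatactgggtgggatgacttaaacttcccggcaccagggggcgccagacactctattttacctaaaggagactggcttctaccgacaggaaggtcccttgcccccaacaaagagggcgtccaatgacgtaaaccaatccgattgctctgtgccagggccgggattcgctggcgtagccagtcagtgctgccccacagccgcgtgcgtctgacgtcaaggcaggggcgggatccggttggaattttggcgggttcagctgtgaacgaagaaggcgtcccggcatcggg
ORC4: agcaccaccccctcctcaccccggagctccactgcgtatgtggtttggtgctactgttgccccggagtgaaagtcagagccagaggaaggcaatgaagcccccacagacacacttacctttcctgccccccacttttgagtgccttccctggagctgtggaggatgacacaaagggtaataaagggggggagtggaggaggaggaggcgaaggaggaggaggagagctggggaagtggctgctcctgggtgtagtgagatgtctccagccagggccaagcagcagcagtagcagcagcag
In MCM6 each of the 2 capital runs holds TTTGGCGC on the gene's strand and, overlapping it, TTTCGCGC on the other strand, from -152 to -141 and from -90 to -79 relative to the start. In CDC6 the letters lie from 8 to 15, and in GINS3 from -5 to 3 on the other strand.

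The E2F letters were common among these promoters. They stood in 22 of the 43 replication genes with a promoter entry (51.2%), in 6.69% of the 9657 tested genes with one, and in 3.31% of all 35116 promoters of this length. The shorter CHR letters TTTGAA, known from genes of late cell cycle, stood in 2 of the 43 (4.65%) against 13.6% of tested genes, and CCAAT, the letters of the NF-Y site, in 25 (58.1%) against 43.6%. MCM2, MCM3, MCM6 and MCM7 all held the E2F letters, while ORC1, MCM10 and CDC45, among the genes with the greatest decreases, did not. Of the 22 genes with the letters 22 were called lower at 72 h, with a median log2 change of -1.57 and a range of -2.94 to -0.91. Of the 21 without them 18 were lower, with a median of -1.42 and a range of -3.33 to 0.40. Of all genes tested 22.7% were lower at 72 h. At 24 h 5 of the 22 and 4 of the 21 were lower, where 5.72% of all genes were. The median log2 changes at 24 h were -0.12 with the letters and -0.13 without. A match describes letters in a 300-base window and does not show binding, and a missing match says nothing of the factor.

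Among the 6 ORC subunits, which mark origins for loading, 4 were called lower and 1 higher at 72 h, and the log2 changes ran between -2.59 and 0.40. ORC1, the ATPase subunit that comes and goes with the cell cycle, had signals of 365, 367 and 368 at 0 h, 307, 289 and 421 at 8 h and 264, 257 and 233 at 24 h. ORC1 showed 105, 98.4 and 66.7 at 48 h and 56.7, 49.2 and 38.1 at 72 h. Every array at 24, 48 and 72 h read below every array at 0 h, and at 72 h the mean was 13.1% of that at 0 h. ORC4, another ATPase-type subunit, had 512, 568 and 565 at 0 h, 528, 565 and 584 at 8 h and 556, 685 and 598 at 24 h. ORC4 then read 732, 693 and 783 at 48 h and 677, 713 and 794 at 72 h. Its arrays at 48 h and 72 h all read above those at 0 h, with log2 changes of 0.41 ± 0.09 (adjusted p = 8.6e-04) and 0.40 ± 0.09 (adjusted p = 8.7e-04), and it was the only 1 of the 49 to be higher at these times. Both calls of ORC4 were kept under each of 29 other settings. ORC2, a subunit of the stable core of the complex, had 195, 201 and 240.2 at 0 h, 218, 226 and 237 at 8 h and 221, 257 and 243 at 24 h. ORC2 gave 209, 216 and 249.9 at 48 h and 188, 223 and 178 at 72 h. The groups of ORC2 overlapped at every time, and its log2 change at 72 h was -0.10 ± 0.10 (adjusted p = 0.42). ORC3, another core subunit, changed by -1.01 ± 0.10 at 72 h, ORC6, the smallest subunit, by -1.19 ± 0.10, and ORC5 by -0.46 ± 0.10 (adjusted p = 8.0e-04). At 48 h ORC5 was called lower at -0.28 ± 0.10 (adjusted p = 0.029), a call that was lost under 6 of 29 other settings, which left out replicate 1 or 3 at 0 h, replicate 1 or 2 at 48 h, or all arrays of replicate 1 or of replicate 2.

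All 3 loading factors were lower at 48 h and 72 h. CDC6, the ATPase that joins ORC to load the helicase, had signals of 572, 579 and 592 at 0 h, 483, 494 and 573 at 8 h and 399, 411 and 419 at 24 h. CDC6 showed 125, 136 and 116 at 48 h and 62.3, 62.9 and 59.8 at 72 h. Every 72 h array of CDC6 read below every 48 h array, and every 48 h array below every 24 h array, so that at 72 h the mean was 10.6% of that at 0 h. GMNN, which encodes geminin, the inhibitor of CDT1, had 1318, 1493 and 1363 at 0 h, 1403, 1274 and 1531 at 8 h and 1119.8, 1275 and 1123 at 24 h. GMNN then read 504, 536 and 507 at 48 h and 318, 338 and 382 at 72 h. Its log2 change was -1.96 ± 0.09 at 72 h (adjusted p = 4.7e-12), and the 24 h arrays already lay below those at 0 h without a call (adjusted p = 0.07). CDT1, which carries the MCM ring to the origin, stood at 102% of its 0 h mean at 24 h, 54.1% at 48 h and 21.5% at 72 h, with a log2 change of -2.0 ± 0.16 at 72 h.

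The 6 subunits of the MCM2-7 ring, the core of the replicative helicase, were all called lower at 48 h and at 72 h, though not by the same amount. MCM6 had signals of 2449, 2392 and 2225 at 0 h, 2219, 2011 and 2015 at 8 h and 1664, 1714 and 1397 at 24 h. MCM6 gave 818, 916 and 698 at 48 h and 465, 409.8 and 374 at 72 h. All MCM6 arrays at 8 h lay below those at 0 h, and the order of the times held without overlap to 72 h, where the log2 change was -2.46 ± 0.10 (adjusted p = 2.6e-12). MCM2, the subunit with the least change, had 2129, 2014 and 2088 at 0 h, 1784, 1821 and 2154 at 8 h and 1878, 1957 and 1537 at 24 h. MCM2 showed 1189.8, 1148 and 872 at 48 h and 971, 963 and 997 at 72 h. Its arrays at 72 h overlapped those at 48 h, and its log2 change at 72 h was -1.08 ± 0.11 (adjusted p = 1.8e-07). The other subunits were MCM5 (-2.34 ± 0.10), MCM4 (-2.0 ± 0.12), MCM3 (-1.57 ± 0.09) and MCM7 (-1.36 ± 0.08). The order at the top rests on the probe set read: other probe sets of MCM4 gave log2 changes at 72 h of -2.61, -2.27 and -2.09, and a dimmer one of MCM6 gave -1.50. At 24 h, when MCM6 was called lower, the log2 changes of the other 5 lay between -0.29 and 0.05 and none was called.

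MCM10 and MCM8 share the name but not the ring. MCM10, which helps the loaded helicase to start moving, showed the greatest decrease of the 49, with signals of 663, 698 and 733 at 0 h, 549, 559.7 and 621 at 8 h and 381, 400.0 and 429 at 24 h. MCM10 then read 116, 130.4 and 99.5 at 48 h and 57.7, 64.2 and 44.6 at 72 h. At 72 h the mean was 7.96% of that at 0 h (adjusted p = 2.7e-13), and no array at a later time reached the lowest array of the time before. MCM8, which works with MCM9 in recombination repair, had 234, 269 and 245 at 0 h, 249, 246 and 237 at 8 h and 203, 226 and 256 at 24 h. MCM8 gave 94.7, 96 and 91.8 at 48 h and 77.5, 69.2 and 73.0 at 72 h. MCM8 showed no call at 24 h, and its log2 change at 72 h was -1.57 ± 0.09 (adjusted p = 1.9e-10), after -1.27 ± 0.09 at 48 h.

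All 7 helicase activators were called lower at 48 h and 72 h, and 3 of them already at 24 h. CDC45, a subunit of the active helicase, had signals of 286, 326 and 318 at 0 h, 346, 305 and 387 at 8 h and 274, 274 and 295 at 24 h. CDC45 showed 111, 114 and 67.8 at 48 h and 24.8, 35.9 and 29.5 at 72 h. Its 24 h arrays overlapped those at 0 h, while at 72 h the mean was 9.69% of that at 0 h (adjusted p = 2.2e-11). GINS3, a subunit of the GINS complex, had 489, 476 and 455 at 0 h, 353, 299.9 and 422 at 8 h and 184, 193 and 169 at 24 h. GINS3 then read 108, 114 and 80.2 at 48 h and 52.3, 55.2 and 57.6 at 72 h. All 3 arrays of GINS3 at each time lay below all 3 of the time before, and at 24 h the mean was already 38.4% of that at 0 h. GINS4, another subunit, was dim, with 94.6, 116 and 132 at 0 h, 85.0, 67.1 and 99.5 at 8 h and 55.4, 62.0 and 60.0 at 24 h. GINS4 gave 27.1, 16.7 and 13.9 at 48 h and 4.0, 12.3 and 15.1 at 72 h. From 48 h its signals lay near the filter of 16.6, so the log2 change of -2.31 ± 0.18 at 72 h (adjusted p = 6.9e-09) is compressed by the added 16. Its dimmer probe sets changed less, by -0.49 and -0.96 at 72 h and, without a call, by 0.19 and -0.27 at 24 h. GINS1 and GINS2, the remaining subunits, changed by -2.28 ± 0.12 and -2.46 ± 0.11 at 72 h, but by only -0.19 and -0.03 at 24 h without a call.

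The kinase pair that fires origins was lower from 24 h in its regulator and from 48 h in its catalytic subunit. CDC7, the catalytic subunit, had the least change among the activators, with signals of 763, 843 and 703 at 0 h, 838, 712 and 912 at 8 h and 770.0, 858 and 807 at 24 h. CDC7 showed 514, 604 and 462 at 48 h and 438, 455 and 323 at 72 h. It was not called at 24 h and had log2 changes of -0.54 ± 0.12 at 48 h (adjusted p = 0.0018) and -0.91 ± 0.12 at 72 h (adjusted p = 6.4e-06). DBF4, the subunit that switches CDC7 on, had 744, 753 and 718 at 0 h, 741, 660.2 and 863 at 8 h and 496, 599.8 and 547 at 24 h. DBF4 then read 315, 357 and 332 at 48 h and 248, 275 and 284 at 72 h. Its arrays at 24 h were all below those at 0 h and at 8 h, and the log2 change reached -1.41 ± 0.10 at 72 h (adjusted p = 9.4e-10).

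Polymerase alpha and primase start each new strand with a short primer, and all 4 of their subunits were called lower at 48 h and 72 h and none at 24 h. POLA2, the regulatory subunit of the polymerase, had signals of 394, 325 and 336 at 0 h, 416, 366 and 389.6 at 8 h and 301, 338 and 324 at 24 h. POLA2 gave 136, 146 and 93.2 at 48 h and 68.2, 62.7 and 52.8 at 72 h. Its log2 change at 72 h was -2.25 ± 0.13 (adjusted p = 9.9e-11), while its dimmer probe sets gave -1.11 and 0.01. PRIM2, the large subunit of primase, had 117, 117 and 104 at 0 h, 79.3, 78.1 and 82.5 at 8 h and 109.6, 110.0 and 90.1 at 24 h. PRIM2 showed 51.7, 75 and 42.7 at 48 h and 48.4, 54.8 and 49.6 at 72 h. All PRIM2 arrays at 8 h lay below those at 0 h and those at 24 h, without a call at 8 h (log2 change -0.42 ± 0.14, adjusted p = 0.29), and the change at 72 h was -0.94 ± 0.14. PRIM1, the catalytic subunit of primase, changed by -2.18 ± 0.14 at 72 h, and POLA1, that of polymerase alpha, by -0.95 ± 0.11.

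Of the 6 subunits of the main polymerases, epsilon on the leading and delta on the lagging strand, 5 were lower at 48 h and 72 h. POLE2, the second subunit of polymerase epsilon, had signals of 374, 373 and 345 at 0 h, 356, 345 and 336 at 8 h and 296, 309 and 251 at 24 h. POLE2 then read 145, 146 and 110.0 at 48 h and 74.0, 74.7 and 64.8 at 72 h. The 24 h arrays lay below all at 0 h and 8 h, and the log2 change at 72 h was -2.13 ± 0.11 (adjusted p = 1.9e-11). POLE3, a small histone-fold subunit of the same enzyme that also serves in chromatin remodelling, had 1244, 1214 and 1200.1 at 0 h, 1077, 944 and 1066 at 8 h and 726, 777 and 755 at 24 h. POLE3 gave 501, 563 and 528 at 48 h and 425, 451 and 459.8 at 72 h. Each time lay below the time before without overlap, and 48.2% of the log2 change seen at 72 h had been reached at 24 h. POLD2, the second subunit of polymerase delta, had 612, 590.2 and 488 at 0 h, 544, 519 and 578 at 8 h and 563, 579.5 and 547 at 24 h. POLD2 showed 588, 472 and 484 at 48 h and 384, 519.6 and 503 at 72 h. Its groups overlapped at every time, and the log2 change of -0.26 ± 0.11 at 72 h was not called (adjusted p = 0.054). Under 7 of 29 other settings it was called, which were centring of arrays, array weights, and leaving out replicate 3 at 0 h, replicate 1 at 48 h, replicate 2 or 3 at 72 h or all replicate 3 arrays, with log2 changes between -0.41 and -0.07 over the 29. The catalytic subunits POLE and POLD1 changed by -1.08 ± 0.13 and -0.93 ± 0.12 at 72 h, and POLD3, an accessory subunit of delta, by -1.17 ± 0.09.

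The sliding clamp PCNA and all 5 subunits of its loader RFC were lower at 48 h and 72 h, and none was called at 24 h. RFC2, a small subunit, had signals of 482, 470.2 and 408 at 0 h, 392, 423 and 456 at 8 h and 375, 356 and 404 at 24 h. RFC2 then read 171, 226 and 149 at 48 h and 119, 135 and 124 at 72 h. No RFC2 array at 48 h or 72 h reached the lowest array of the time before. RFC1, the large subunit, had the least change of the 6, with 483, 567 and 483 at 0 h, 436, 486 and 637 at 8 h and 463, 448 and 470.1 at 24 h. RFC1 gave 347, 363 and 332 at 48 h and 307, 254 and 316 at 72 h. The arrays of both genes at 24 h lay below all at 0 h but overlapped those at 8 h, and their log2 changes at 72 h were -1.73 ± 0.12 and -0.78 ± 0.11 (adjusted p = 8.9e-10 and 1.7e-05). PCNA and the small loader subunits RFC3, RFC4 and RFC5 lay close to RFC2, at -1.47, -1.53, -1.62 and -1.68 on the log2 scale, with SEs of 0.07 to 0.13.

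FEN1 and LIG1, which trim and seal Okazaki fragments, were both lower at 48 h and 72 h but stood apart at 24 h. FEN1, the flap nuclease, had signals of 1229, 1238 and 1236 at 0 h, 1288, 1331 and 1419 at 8 h and 1138, 1036 and 1109.9 at 24 h. FEN1 showed 407, 436 and 337 at 48 h and 305, 211 and 325 at 72 h. The FEN1 arrays at 8 h all lay above those at 0 h and the 24 h arrays all below them, without a call at either time. LIG1, the ligase, had 169, 195 and 153 at 0 h, 203, 207 and 251 at 8 h and 244, 222 and 252 at 24 h. LIG1 then read 86.8, 104 and 83.5 at 48 h and 71.2, 69.3 and 56.6 at 72 h. All LIG1 arrays at 8 h and 24 h lay above those at 0 h, and all at 48 h and 72 h below them. The log2 change at 72 h was -2.10 ± 0.12 for FEN1 (adjusted p = 9.6e-11) and -1.21 ± 0.12 for LIG1 (adjusted p = 1.2e-07).

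RPA coats single-stranded DNA as a trimer, and its 3 subunits were all lower at 48 h and 72 h. RPA2, the middle subunit and a target of the checkpoint kinases, had signals of 1055, 1010.3 and 989.5 at 0 h, 788, 724 and 827 at 8 h and 493, 511 and 504 at 24 h. RPA2 gave 267, 305 and 240.0 at 48 h and 248, 236 and 193 at 72 h. Its 3 arrays at 8 h and at 24 h lay below all arrays of the time before, and at 24 h the mean was 49.4% of that at 0 h. RPA1, the large subunit that binds DNA, had 1043, 996 and 1042 at 0 h, 1056, 1059.5 and 1054 at 8 h and 1023, 972 and 882 at 24 h. RPA1 showed 689, 718 and 683 at 48 h and 620.5, 614 and 469.5 at 72 h. RPA1 at 8 h lay above 0 h by a small step without a call (log2 change 0.04 ± 0.09, adjusted p = 0.94), overlapped 0 h at 24 h and changed by -0.85 ± 0.09 at 72 h (adjusted p = 3.3e-07). RPA3, the small subunit, changed by -0.05 ± 0.09 at 24 h, -0.84 ± 0.09 at 48 h and -1.68 ± 0.09 at 72 h. At 72 h the log2 change was thus -2.10 ± 0.09 for RPA2 and less for both partners.

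The 4 fork protection genes were all lower at 48 h and 72 h. CLSPN, which encodes claspin, a mediator of the checkpoint kinase CHK1, had signals of 106, 132 and 131 at 0 h, 97.4, 120.5 and 178 at 8 h and 105, 99.4 and 115 at 24 h. CLSPN then read 31.4, 33.3 and 27.3 at 48 h and 19.4, 18.1 and 21.4 at 72 h. Its 72 h arrays lay just above the filter, with a log2 change of -1.96 ± 0.16 (adjusted p = 8.1e-09). TIMELESS, a scaffold of the moving fork, had 681, 731 and 688 at 0 h, 879, 834 and 888 at 8 h and 834, 865 and 998 at 24 h. TIMELESS gave 459, 491 and 439.7 at 48 h and 272, 232 and 212 at 72 h. TIMELESS read above 0 h on all arrays at 8 h and 24 h and below it on all at 48 h and 72 h. TIPIN, the partner that binds TIMELESS, had 349, 434 and 371 at 0 h, 394, 338 and 351.4 at 8 h and 287, 306 and 297 at 24 h. TIPIN showed 183, 159.7 and 184 at 48 h and 139.7, 135 and 154 at 72 h. At 24 h TIPIN lay below 0 h on all arrays while TIMELESS lay above, and at 72 h the log2 changes were -1.33 ± 0.10 for TIPIN (adjusted p = 1.9e-09) and -1.50 ± 0.09 for TIMELESS (adjusted p = 1.7e-10). WDHD1, which ties polymerase alpha to the helicase, changed by -1.72 ± 0.14 at 72 h.

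At 24 h the genes that had moved came from most steps of replication. Those called lower were GINS3 (log2 change -1.31 ± 0.12, adjusted p = 1.0e-06), RPA2 (-1.0 ± 0.09, adjusted p = 1.3e-06), GINS4 (-0.78 ± 0.18, adjusted p = 0.0077), MCM10 (-0.77 ± 0.11, adjusted p = 1.1e-04), POLE3 (-0.68 ± 0.07, adjusted p = 3.9e-06) and MCM6 (-0.57 ± 0.10, adjusted p = 0.0011). Smaller decreases passed for ORC1 (-0.52 ± 0.15), CDC6 (-0.49 ± 0.08), DBF4 (-0.42 ± 0.10), TIPIN (-0.35 ± 0.10) and POLE2 (-0.34 ± 0.11). LIG1 and TIMELESS were called higher, at 0.44 ± 0.12 (adjusted p = 0.019) and 0.35 ± 0.09 (adjusted p = 0.014), and both were called lower at 48 h and 72 h. The calls of CDC6, MCM6, MCM10, GINS3, POLE3 and RPA2 were kept under each of 29 other settings. Those of LIG1 and TIMELESS were each lost under 8. Neither was called after centring the arrays or without replicate 1 at 0 h, replicate 3 at 0 h or replicate 3 at 24 h, and LIG1 also not without replicate 1 at 24 h. Both calls were also lost without all arrays of replicate 1, of replicate 2 or of replicate 3. That of TIMELESS was lost with the mean of its probe sets too. POLE2 was lost under 12 settings, among them leaving out any 1 array at 0 h, and ORC1 under 9, among them leaving out any 1 array at 0 h or at 24 h. TIPIN was lost under 5, among them leaving out replicate 2 at 0 h or replicate 1 or 3 at 24 h, GINS4 under 3 and DBF4 under 1. Not called here but under some settings were MCM5 (9 settings, among them without replicate 3 at 8 h or at 48 h), GMNN (4, among them without replicate 2 at 24 h or replicate 3 at 72 h) and RFC2 (1). The count of lower genes was 7 with either all replicate 1 or all replicate 2 arrays left out.

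**Figure D3:**
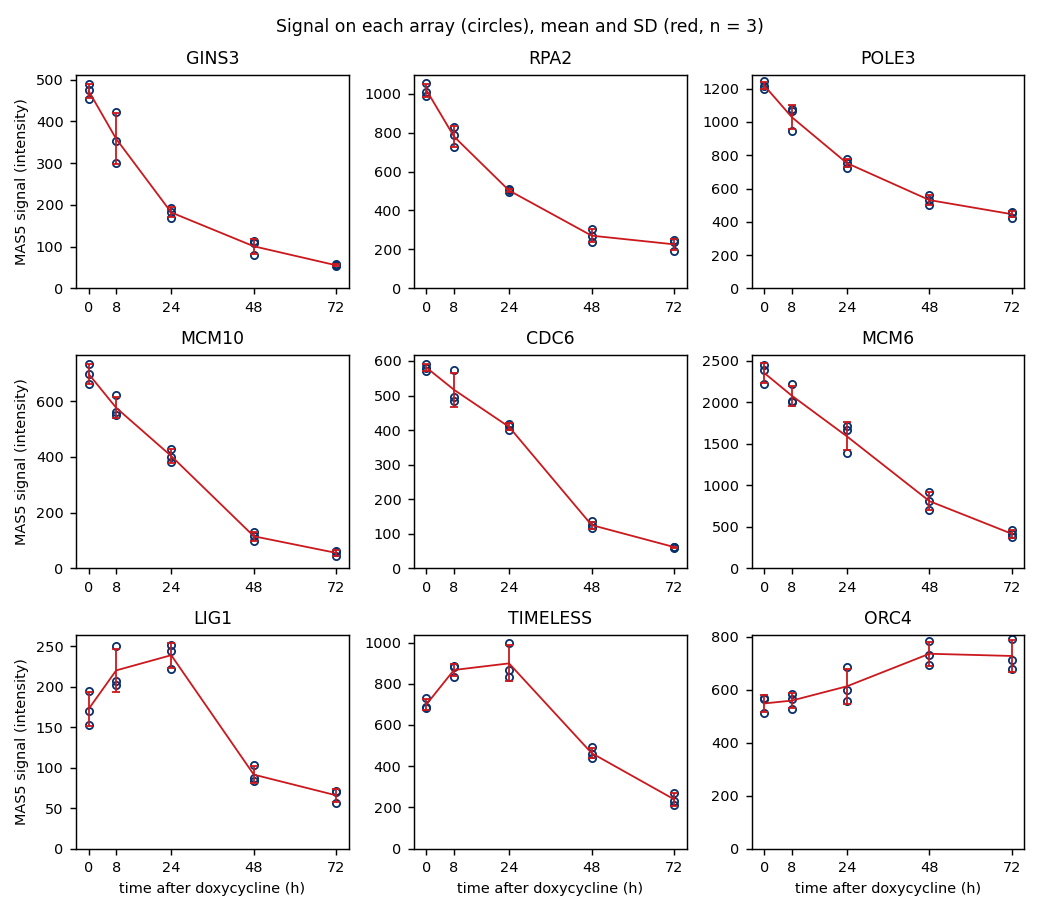
Signal on each array (points, linear MAS5 units) and the mean with 1 SD (n = 3) at 0, 8, 24, 48 and 72 h for 9 replication genes. GINS3, RPA2, POLE3, MCM10, CDC6 and MCM6 are below 0 h on all 24 h arrays, LIG1 and TIMELESS above it at 24 h and below it from 48 h, and ORC4 above it from 48 h.

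The genes with the greatest changes at 24 h had mean values below 0 h at 8 h as well, without a call in the fit described. Both changes are taken against the same 0 h arrays, so they are not independent. At 8 h the log2 change was -0.40 ± 0.12 for GINS3 (adjusted p = 0.23), -0.38 ± 0.09 for RPA2 (adjusted p = 0.11) and -0.39 ± 0.18 for GINS4 (adjusted p = 0.52). The GINS4 arrays at 8 h overlapped those at 0 h, and its dimmer probe sets changed by 0.37 and -0.09. GINS3 and RPA2 were both called with array weights and without the replicate 3 arrays, and RPA2 also without replicate 3 at 72 h. Replicate 3 at 8 h had the second lowest array weight, 0.405 beside weights up to 2.17. Of the genes called lower at 24 h, it read highest of the 8 h arrays for ORC1, CDC6, MCM10, GINS3, GINS4, DBF4 and RPA2. For the others, MCM6, POLE3, TIPIN and POLE2, replicate 1 read highest. Replicate 3 also read highest at 8 h for genes not called at 24 h, MCM3, GINS1 and CDC45 among them.

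The median decrease was greater between 24 h and 48 h than on the steps before and after it. Between 24 h and 48 h 45 of the 49 genes were called lower and 1, ORC4, higher, where 10.5% of all genes were lower and 12.4% higher, and the median log2 change of the step was -0.93. Between 48 h and 72 h 34 were lower and none higher, where 6.14% and 4.54% of all genes were, with a median of -0.47. Between 8 h and 24 h 7 were lower and none higher, where 3.24% and 2.54% of all genes were, with a median of -0.14. Of the 46 genes lower at 72 h, the share of the 72 h log2 change reached at 48 h had a median of 67.5%, lowest in TIMELESS at 38.7% and highest in PRIM2 at 90.3%. The share reached at 24 h had a median of 8.77%, with POLE3 at 48.2%, RPA2 at 47.3% and GINS3 at 46.9% at the high end. CDT1 and CDC45 were among the genes with large changes on the last step, -1.15 ± 0.16 and -1.28 ± 0.14 between 48 h and 72 h beside -0.86 ± 0.16 and -1.42 ± 0.14 between 24 h and 48 h. The dimmer probe set of CDT1 gave the other order, -0.67 between 48 h and 72 h and -0.88 between 24 h and 48 h. CLSPN and FEN1 changed mainly on the earlier of these steps, by -1.39 ± 0.16 and -1.45 ± 0.12 between 24 h and 48 h and by -0.39 ± 0.16 and -0.48 ± 0.12 between 48 h and 72 h. The ORC4 call between 24 h and 48 h (0.26 ± 0.09, adjusted p = 0.038) was lost without replicate 1 or 3 at 24 h or at 48 h. Leaving out all arrays of replicate 1 or of replicate 2 left 18 genes lower between 48 h and 72 h. The count of 7 between 8 h and 24 h was 4 without replicate 1 at 24 h or without all replicate 2 arrays, and 1 without all replicate 1 arrays.

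**Figure D4:**
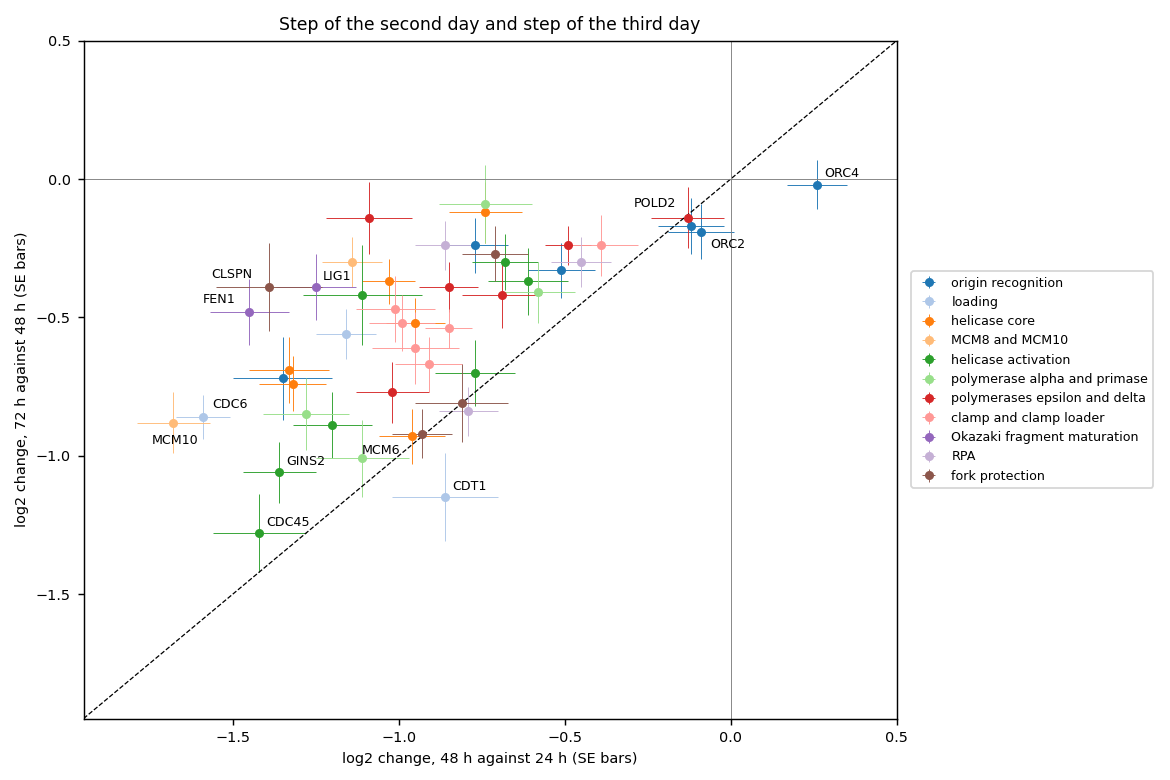
Log2 change between 48 h and 72 h (vertical axis) against that between 24 h and 48 h (horizontal axis) for the 49 genes, with bars of 1 SE and a dashed line of equal change. Most genes lie above the line, with a smaller decrease between 48 h and 72 h. CDT1 lies below it, with a difference of -0.29 that was not called.

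The difference between these steps was itself tested, as the change between 48 h and 72 h minus that between 24 h and 48 h. It was positive, a smaller decrease on the later step, in 42 of the 49 genes, as in 5434 of all 11774 genes. Its median was 0.34 beside -0.03 over all genes. The added 16 understates steps between dim signals, such as those at 72 h, and its part in this difference was not tested. It passed for CDC6, at 0.73 ± 0.14 (adjusted p = 0.038), and for MCM8, at 0.84 ± 0.16 (adjusted p = 0.036), where 0.195% of all genes were called in this direction, and for no gene in the other direction, where 0.136% of all genes were. At an unadjusted p under 0.05 it was positive in 24 genes, where 6.79% of all genes were, and negative in 0, where 7.59% were. The calls of CDC6 and MCM8 depended on the setting: the number of genes called was 0 after centring the arrays, without a filter or with only the times compared in the fit, and 11 with array weights. Leaving out all arrays of any 1 replicate number gave 0 genes as well. With single arrays left out, the number was 0 without any 1 array at 0 h or 48 h, replicate 2 at 8 h, replicate 3 at 24 h or replicate 1 at 72 h. It was 1 without replicate 1 at 24 h, 4 without replicate 2 at 24 h and 6 without replicate 3 at 8 h. With the replicate number as a block it was 8. The other probe set of CDC6 gave a difference of 0.77 and that of MCM8, a dim one, 0.65, neither of them called.

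The other probe sets of the same genes gave another reading of the same arrays. Of the 34 other probe sets past the filter, in 25 of the genes, 28 were lower and 1 higher at 48 h, where 13.8% and 20.8% of all 27307 probe sets tested singly were. At 72 h 30 were lower and 1 higher, where 19.3% and 27.1% of all were. At 24 h 4 were lower and none higher, where 4.0% and 4.68% of all were, and at 8 h none was called, where 0.212% were lower and 0.0293% higher. The higher one at 48 h and 72 h was ORC4's, at 0.37 and 0.34 on the log2 scale. Those not called at 72 h belonged to GINS2, POLA2 and ORC2, and the first pair were dim probe sets of genes whose brightest probe set was called lower. Of the genes called at 24 h, CDC6, GINS3 and MCM10 were called in the same direction on their other probe sets. The dimmer probe sets of TIMELESS (log2 change -0.01), MCM6 (-0.50) and, as given above, GINS4 were not called at 24 h.

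A wider list of 35 further replication genes (alternative clamp loaders, chromatin assembly factors, ubiquitin ligase subunits that remove CDT1 and others), of which 33 were tested, was also mostly lower at the late times. At 72 h 28 of the 33 were lower and 1 higher, beside 22.7% and 32.8% of all genes, with a median log2 change of -0.85. At 48 h 21 were lower and 2 higher, beside 17.7% and 26.3% of all genes. At 24 h 4 were lower and 1 higher, beside 5.72% and 7.74%. The greatest decreases at 72 h were those of DSCC1, a subunit of an alternative clamp loader (-2.48 ± 0.10), DTL, the adaptor that sends CDT1 to destruction (-2.45 ± 0.12), CHAF1B, of the chromatin assembly factor CAF-1 (-2.13 ± 0.20), and ASF1B, a histone chaperone (-2.0 ± 0.14). DTL had signals of 1076, 1029.6 and 1117 at 0 h, 866, 917 and 1166 at 8 h and 916, 879.9 and 937 at 24 h. DTL then read 386, 404 and 277 at 48 h and 200.3, 188 and 165 at 72 h. All DTL arrays at 48 h and 72 h lay below those at 0 h. DSCC1, MCMBP, which binds free MCM rings, MCM9, the partner of MCM8, and the histone chaperone ASF1A were already lower at 24 h, at -0.37 ± 0.10, -0.26 ± 0.08, -0.55 ± 0.14 and -0.46 ± 0.10. CHTF18, which works with DSCC1 in the alternative loader, had 105, 120.3 and 89.9 at 0 h, 132, 149 and 145 at 8 h and 162, 156 and 156 at 24 h. CHTF18 gave 94.4, 71.9 and 66.0 at 48 h and 80.2, 68.8 and 54.2 at 72 h. It was higher at 24 h (0.53 ± 0.13, adjusted p = 0.014) and lower at 72 h (-0.54 ± 0.13, adjusted p = 0.0025). CUL4B, a scaffold of the ubiquitin ligase, was higher at 48 h and 72 h, at 0.30 ± 0.08 and 0.33 ± 0.08, and POLD4, the smallest subunit of polymerase delta, at 48 h (0.79 ± 0.24, adjusted p = 0.012), with a 72 h value of 0.38 ± 0.24 (adjusted p = 0.19) and signals near the filter. In the promoters of this list the E2F letters stood in 5 of 26 (19.2%).

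**Figure D5:**
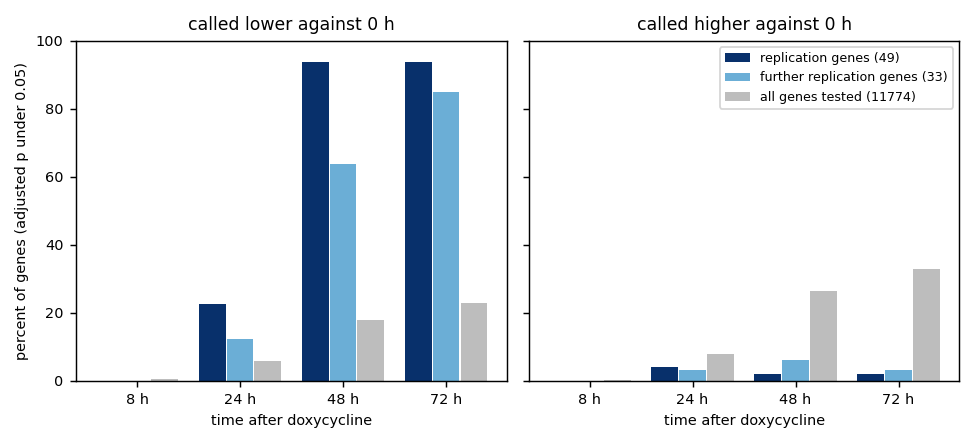
Percent of genes called lower and higher at 8, 24, 48 and 72 h against 0 h for the 49 replication genes, the 33 further replication genes and all 11774 genes tested. The replication genes reach 93.9% lower at 48 h and 72 h, where all genes stand at 17.7% and 22.7%.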

How the data were processed

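Total RNA of 15 samples of the IMR32 clone was labelled from 4 µg and hybridised to Affymetrix arrays with 54675 probe sets, 3 arrays at each of 5 times. The deposited values are MAS5 signals, linear intensities that the authors computed with MAS5 in GCOS, per the submitters' processing notes, whose versions are not given in the sources used here. On every array the trimmed mean of the deposited intensities, leaving out the 2% at each end, was 100.01, so the arrays had been scaled to a common level.

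From these intensities log2(signal + 16) was computed, and 62 control probe sets and probe sets with a mean under the array median (a signal of 16.6) were left out, which kept 27307. GEO's platform annotation names 1 gene for 41091 probe sets, several for 1801 and none for 11721. Each gene was read from its brightest probe set with 1 gene symbol. Differences between times were tested with limma 3.58.1 in R 4.3.3 (lmFit, then eBayes with a trend) over all 11774 genes and all 15 arrays, two-sided, with Benjamini-Hochberg adjustment. The members and lists were chosen with earlier results of these data known. Genes named with a value on every array are, in each role, those with the greatest and the least change at 72 h and any that was called higher, or called at 8 h or 24 h. Of the 35 further genes those called at 24 h, those called higher and the 4 with the greatest decrease at 72 h are named. The fit was tested on simulated data. Tables were made with Python 3.11.15 and pandas 2.3.3, figures with matplotlib 3.10.9. Letters were searched in RefSeq promoters of GRCh38.p14.

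Groups at different times share replicate numbers, and the correlation of their residuals was over 0.1 in all 3 pairs only for 48 h with 0 h (0.122 to 0.211) and 72 h with 48 h (0.119 to 0.353). The main fit has no block. Alternatives changed the pseudocount (1 or 64), the scaling, the filter, the probe sets per gene, the array weights, the arrays fitted and the block, and left out each array or all arrays of a replicate number. MAS5 gives no counts, so the precision rests on the number of arrays.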

Additional observations from a re-analysis of the deposited data

How the results depend on the processing

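Over 29 other settings of the fit, 18 of which left out arrays, the counts of called genes moved as follows. The shares of all genes called under these settings were not computed. The log2 changes at 8, 24, 48 and 72 h gave 5672 comparisons with the main fit, called or not. No called log2 change reversed its sign, while 118 uncalled values changed sign and stayed uncalled. Of the 5672 comparisons, 52 lost a call, 46 at 24 h and 6 at 48 h, and 26 gained one. With array weights 2 genes were lower at 8 h in place of 0. Higher at 24 h were 0 genes after centring the arrays and 1 with the mean of a gene's probe sets, in place of 2. Higher between 24 h and 48 h were 0 genes after centring, without a filter, with all probe sets tested singly and with only the times compared, in place of 1. The difference between the later steps was called positive in 2 genes, and in 1 with a pseudocount of 1, 6 with a pseudocount of 64, 6 after quantile normalisation, 0 after centring, 0 without a filter, 4 of 46 tested genes with the brightest 25% of probe sets, 0 with all probe sets tested singly, 11 with array weights and 0 with only the times compared. With the replicate block it was called in 8 genes. The block gave 12 lower and 2 higher at 24 h, 46 and 1 at 48 h, 46 and 1 at 72 h, 7 and 0 between 8 h and 24 h, 45 and 1 between 24 h and 48 h, and 36 and 0 between 48 h and 72 h. Where arrays were left out, singly or by replicate number, the counts ranged for lower and higher genes over 0 to 2 and 0 to 0 at 8 h, 7 to 13 and 0 to 2 at 24 h, 45 to 46 and 1 to 1 at 48 h, 46 to 47 and 1 to 1 at 72 h, 1 to 7 and 0 to 0 between 8 h and 24 h, 43 to 45 and 0 to 1 between 24 h and 48 h, and 18 to 37 and 0 to 0 between 48 h and 72 h. For the difference between steps 0 to 6 genes were positive and 0 negative. Leaving out arrays leaves fewer samples, and for the other settings the cause was not tested. Signals near the filter of 16.6, such as those of GINS4, CLSPN and CDC45 at 72 h, limit how far a decrease can be measured.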
